A study of Mus musculus with 12 samples.

Results

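The interaction of DHX36 and FANCJ loss was examined in IB10 mouse embryonic stem cells, a line of 129/Ola origin, by bulk RNA sequencing of 4 genotypes with 3 libraries each. All 12 libraries of the series enter the contrast. The genotypes were wild type, a DHX36 knockout, a FANCJ knockout (the mouse gene symbol is Brip1) and the DHX36/FANCJ double knockout. All cultures were untreated and grown on gelatin in conditioned medium with fetal calf serum and leukaemia inhibitory factor. The labels do not say how the alleles were made, whether a genotype was 1 clone or several, or whether its libraries came from separate cultures, so p-values measure only the spread between these libraries, which may be technical.

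DHX36 is a helicase of the DEAH-box family that unwinds G-quadruplexes, folds in which guanine-rich strands form stacked planes, in RNA and in DNA. FANCJ is a DNA helicase of the Fanconi anaemia pathway that binds BRCA1 and helps replication past G-quadruplexes. Because both act on such structures, the question for each gene is whether losing them together does what the separate losses add up to. The interaction was the effect of FANCJ loss in cells without DHX36 (double knockout minus DHX36 knockout) minus the effect of FANCJ loss in cells with DHX36 (FANCJ knockout minus wild type), on the log2 scale. The same number is the change of the double knockout against wild type minus the sum of both single changes. A positive value is called above the sum, and a negative value below the sum. Levels are CPM, meaning counts after all libraries were scaled to the same normalised total, and each gene's level predicted by the sum is the wild-type mean moved by both single changes. A gene was called at a Benjamini-Hochberg adjusted p under 0.05 in edgeR's quasi-likelihood test over 12765 genes, the test behind every adjusted p given here.

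Dhx36 itself stood at 54.7, 57.6 and 50.1 CPM in wild-type cells, at 10.9, 8.84 and 11.6 in cells lacking only DHX36, at 57.2, 51.5 and 58.0 in those lacking only FANCJ and at 12.2, 15.1 and 14.5 in those lacking both. Brip1 stood at 6.86, 6.72 and 7.03 CPM in wild-type cells, at 6.45, 7.42 and 6.93 in cells lacking only DHX36, at 0.129, 0.266 and 0.619 in those lacking only FANCJ and at 0.744, 0.319 and 0.178 in those lacking both. Each targeted gene was low in every library labelled as its knockout and in no other. Neither departed from the sum: the interaction was 0.36 (SE 0.18, adjusted p 0.234) for Dhx36 and 0.51 (SE 0.70, adjusted p 0.724) for Brip1. Library totals ran from 4284785 to 14721931 counts, and each library of the double knockout was deeper than each of wild type, so low genes carry less counting error there. Mitochondrial transcripts took 10.01% to 13.22% of counts, with the 2 highest shares in the double knockout. All 32 naive pluripotency genes of the stem cell marker list passed the expression filter, and their summed level lay between 6980 and 10300 CPM. It was 148 to 204 CPM for 8 neuroectoderm and 108 to 231 CPM for 8 mesendoderm markers that passed it. Markers of other cells were not all so low. Summed levels were 1250 to 3590 CPM for 18 trophoblast, 778 to 1230 for 18 primitive endoderm and 346 to 1340 for 13 fibroblast markers.

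One feature of the DHX36 knockout libraries touches many results below and is given first. Genes of chromosome 6 were high as a block in these libraries: their median log2 difference from the wild-type mean was 0.44, 0.47 and 0.46 in those 3 libraries, from -0.04 to -0.01 where only FANCJ was lost and from 0.01 to 0.05 where both were lost. The median over all other chromosomes lay between 0.00 and 0.02 in size in every library. The median interaction of the 586 chromosome 6 genes tested was -0.41, and 10 of the 12 bins of 10 Mb along the chromosome had a median under -0.25, against 8 bins of other chromosomes among 213 in all. Of these genes 154 (26.3%) were called below the sum, against 5.09% of other genes, and 8 were called above it. Chromosome 6 holds 4.59% of tested genes and 19.9% of the genes below the sum. Chromosome Y, with 6 genes tested and a median interaction of -0.87, is given apart below. Smaller shifts lay elsewhere: on chromosome 8 the median interaction was -0.14, with 53 of 700 genes below the sum and 5 above. The 2 bins with a median over 0.25 lay from 70 to 90 Mb of chromosome 18, at 0.29 and 0.32. DNA copy number was not measured here, and its part in the result was not tested. Genes of chromosome 6 are named as such below, and counts are given without them where they matter.

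**Figure D1:**
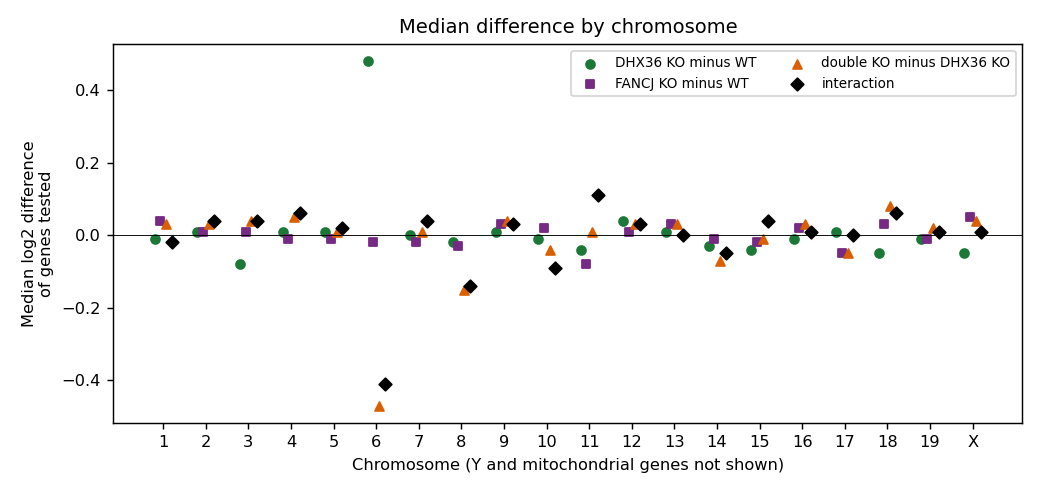
Median log2 difference of the tested genes of each chromosome, for DHX36 loss with FANCJ present, FANCJ loss with and without DHX36, and the interaction. Chromosome 6 stands at 0.48 for the DHX36 knockout and at -0.41 for the interaction. The other chromosomes shown lie closer to 0, with chromosome 8 at -0.14 for the interaction.

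In total 1122 genes departed from the sum (8.79% of those tested), 348 above it (2.73%) and 774 below it (6.06%). The departure was at least 2-fold for 100 genes above and 336 below. Without chromosome 6 genes the fit, an alternative chosen after the data were seen, called 899 genes, 284 above and 615 below. All 1122 genes kept their sign in each fit with 1 library left out in which they were tested, and 641 were called in all 12 such fits, 165 above and 476 below. On the linear scale, where the double knockout is compared with the sum of single differences in CPM, 346 of the 348 and all 774 departed in the same direction.

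FANCJ loss had few effects beside DHX36 and many in its absence. With DHX36 present, FANCJ loss changed 264 genes (2.07%), 185 higher and 79 lower. Without DHX36 it changed 2512 genes (19.7%), 1057 higher and 1455 lower. The smaller count leaned on single libraries: it was 130 without wild type 1, 131 without wild type 2, 110 without FANCJ knockout 1 and 143 without FANCJ knockout 3. With every library thinned to the shallowest total, the counts were 197 and 1724. In the fit without chromosome 6 genes they were 253 and 2095. The pair of contrasts shares no library, and across the 12765 genes their log2 effects had a Pearson r of 0.15 and a Spearman rho of 0.0749, a description over genes that are not independent. The effects of DHX36 loss with and without FANCJ, which also share no library, had an r of 0.584 and a rho of 0.556. DHX36 loss changed 3113 genes with FANCJ (24.4%) and 4697 without it (36.8%), and the double loss changed 4331 genes against wild type (33.9%). With chromosome 6 genes left out, these counts were 2733, 4492 and 4122. The correlations above include chromosome 6 genes.

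Among the departing genes the FANCJ effect had opposite signs with and without DHX36 for 269 of the 348 above the sum and 630 of the 774 below it. It was called only without DHX36 for 263 and 593 of them. Most departing genes took their extreme level in the double knockout: its mean was the highest of the 4 genotypes for 261 of the 348 (75.0%) and the lowest for 595 of the 774 (76.9%). All 3 double knockout libraries lay above the other 9 for 186 genes above the sum and below the other 9 for 436 genes below it, where 15.4% of all tested genes had double knockout libraries clear of the other 9 in either direction. These shapes partly follow from choosing genes by the interaction and are given as a description. Both single losses were upward for 363 of the genes below the sum and downward for 183 of those above it. These counts too partly follow from the choice, since wild type enters both single changes and the interaction. No share over all genes is set beside them, and no result is read from them.

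**Figure D2:**
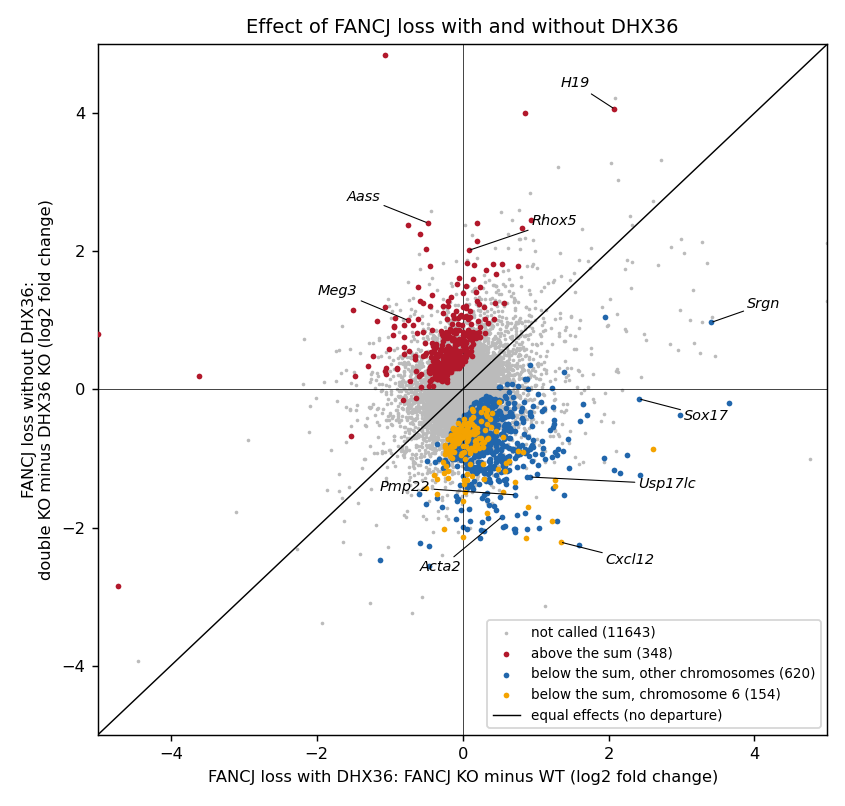
Each point is a gene, with the log2 effect of FANCJ loss with DHX36 on the x axis and without DHX36 on the y axis, values beyond 5 drawn at the edge, and called genes coloured by direction. The line marks equal effects; the 774 genes below the sum lie under it, 154 of them on chromosome 6, and the 348 above the sum lie over it.

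The gene lists given here and below, and their members, were chosen with earlier results of these data known. Their counts and medians can partly follow from that choice and are given as a description. Contractile and cytoskeletal genes, many of them driven by serum response factor (SRF), were below the sum together. Of 21 actin and SRF target genes tested, 15 were below the sum and none above. The called share was 71.4% against 8.79% of all genes. The median interaction was -0.77 beside 0.00 over all genes tested. Of the 15, 14 were called in all 12 fits with 1 library left out. Zyx, which codes for the focal adhesion protein zyxin, is the 1 member among the called genes that lies on chromosome 6. DHX36 loss alone lowered 18 of the 21, FANCJ loss alone raised 2 and lowered none, and FANCJ loss in cells without DHX36 lowered 17. Acta2, smooth muscle actin (ENSMUSG00000035783, chromosome 19 at 34241090 to 34255590 in GRCm38), stood at 388, 314 and 385 CPM in wild-type cells, at 179, 161 and 156 in cells lacking only DHX36, at 529, 534 and 509 in those lacking only FANCJ and at 49.2, 40.3 and 47.8 in those lacking both. The 4 genotypes did not overlap, and the double knockout was lowest although FANCJ loss alone had raised the gene. The sum predicted 239 CPM, and the interaction was -2.38 (SE 0.14, adjusted p 5.5e-10). Tagln, which codes for the actin-binding protein transgelin, stood at 299, 269 and 356 CPM in wild-type cells, at 135, 124 and 115 in cells lacking only DHX36, at 380, 400 and 420 in those lacking only FANCJ and at 67.3, 58.6 and 58.7 in those lacking both. Its order of genotypes was that of Acta2, with an interaction of -1.39 (SE 0.14, adjusted p 1.09e-06). The interactions of other called members ran from -1.29 for Zyx to -0.52 for Flna (filamin A), and included the calponin Cnn1 at -1.21 and the tropomyosins Tpm1, Tpm4 and Tpm2 at -1.01, -0.95 and -0.77.

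Epithelial and matrix genes took the same side. Of 19 simple epithelial keratin and junction genes, 10 were below the sum and none above (median -0.64). Their called share was 52.6% against 8.79% of all genes, and DHX36 loss alone lowered 13 of the 19. Krt18, a keratin of simple epithelia, stood at 203, 221 and 184 CPM in wild-type cells, at 106, 114 and 94.3 in cells lacking only DHX36, at 262, 284 and 246 in those lacking only FANCJ and at 56.5, 53 and 69.8 in those lacking both. The double knockout libraries were clear of the other 9, and the interaction was -1.19 (SE 0.15, adjusted p 1.58e-05). Its partner Krt8 departed by -0.96 and the desmosome gene Dsp by -0.92. Of 23 extracellular matrix genes, 9 were below the sum and none above (median -0.63), a called share of 39.1%. FANCJ loss alone raised 9 of the 23, and DHX36 loss alone lowered 10 and raised 1. Thbs1, which codes for thrombospondin, stood at 162, 143 and 176 CPM in wild-type cells, at 88.5, 98.5 and 91.8 in cells lacking only DHX36, at 217, 207 and 199 in those lacking only FANCJ and at 49.5, 43.2 and 41.8 in those lacking both. Its interaction was -1.42 (SE 0.13, adjusted p 3.79e-07), and the protease inhibitor gene Timp3 departed by -1.83 (SE 0.19, adjusted p 1.28e-06).

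Markers of fibroblasts, cells that a stem cell culture can hold, took the same side of the sum. Of 19 such markers 13 were tested, 7 were below the sum and none above (median -1.15). Their called share was 53.8% against 8.79% of all genes. The summed level of the 13 was 935 to 1120 CPM in wild-type cells and 661 to 691 in cells lacking only DHX36. It was 1280 to 1340 in those lacking only FANCJ and 346 to 364 in those lacking both. Acta2 and Tagln belong to both lists and make up much of this sum in wild-type cells and in both single knockouts. Each single loss moved this sum, while few members were called for it. DHX36 loss alone raised 2 of the 13 and lowered 3 (median 0.03), and FANCJ loss alone raised 2 and lowered none (median 0.29). FANCJ loss without DHX36 lowered 9 and raised none (median -1.01). The 6 untested markers had at most 60 counts over all 12 libraries and none was at 0. The collagen gene Col1a1 stood at 74.0, 66.1 and 71.9 CPM in wild-type cells, at 37.9, 45.0 and 45.8 in cells lacking only DHX36, at 65.6, 65.2 and 68.5 in those lacking only FANCJ and at 11.2, 11.2 and 12.7 in those lacking both. FANCJ loss alone did not pass the test (log2 change -0.09, adjusted p 0.738), while the interaction was -1.79 (SE 0.15, adjusted p 8.26e-08). Fn1 (fibronectin) and Twist1 had interactions of -0.33 (adjusted p 0.11) and -0.18 (adjusted p 0.829). In bulk samples fewer cells of a type and less RNA per cell cannot be told apart, and the part of such cells in the result was not tested.

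**Figure D3:**
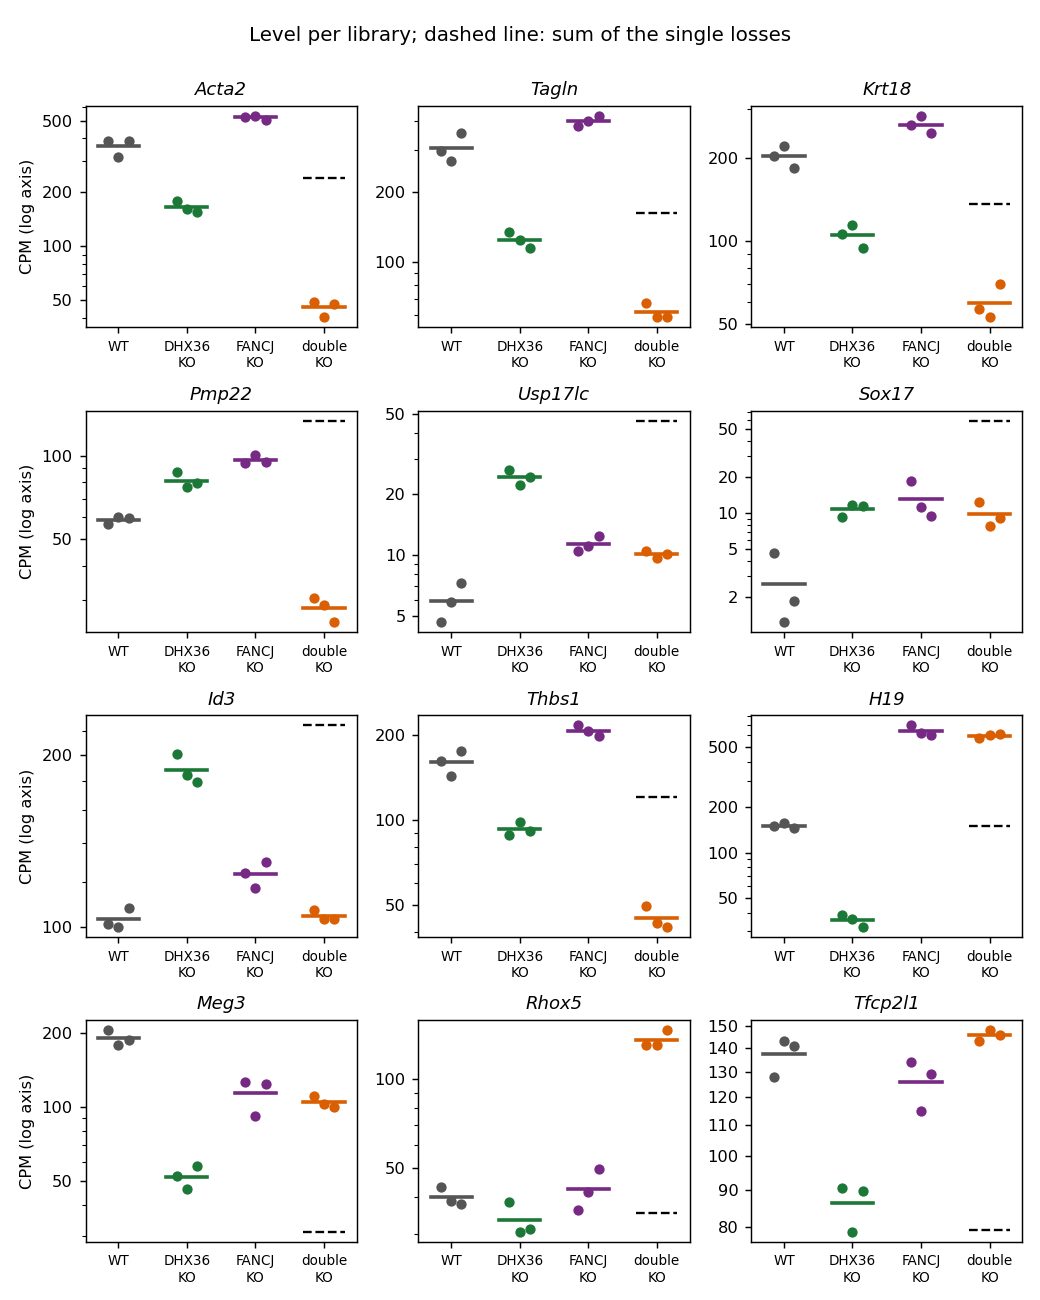
CPM of 12 genes in each library (points, log axis) with the mean of the 3 libraries of a genotype (line); the dashed line over the double knockout is the level that the single losses sum to. Acta2, Tagln, Krt18, Pmp22 and Thbs1 are lowest in the double knockout, Usp17lc, Sox17 and Id3 stay under the dashed line without being lowest, and H19, Meg3, Rhox5 and Tfcp2l1 lie above it.

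A further set of genes was higher in 1 or both single knockouts and not higher again in the double. Pmp22, which codes for a membrane protein of peripheral myelin (ENSMUSG00000018217, chromosome 11 at 63128982 to 63159547), stood at 56.5, 59.8 and 59.5 CPM in wild-type cells, at 87.2, 77.0 and 79.7 in cells lacking only DHX36, at 94.2, 101 and 94.7 in those lacking only FANCJ and at 30.6, 28.9 and 25 in those lacking both. Both single losses raised the gene, and both together left it below wild type in every library. The sum predicted 134 CPM, and the interaction was -2.25 (SE 0.13, adjusted p 6.07e-10). Cxcl12, a chemokine gene on chromosome 6, stood at 4.43, 2.83 and 0.937 CPM in wild-type cells, at 13.6, 14.8 and 12.1 in cells lacking only DHX36, at 6.19, 8.24 and 6.60 in those lacking only FANCJ and at 3.45, 2.79 and 2.32 in those lacking both. The double knockout lay within the wild-type range where the sum predicted 33.5 CPM (interaction -3.56, SE 0.39, adjusted p 2.82e-06). Its call for FANCJ loss alone (adjusted p 0.0262) was lost without wild type 2, wild type 3 or FANCJ knockout 2, with a highest adjusted p of 0.0998. Cd44, the hyaluronan receptor gene, stood at 14.2, 18.9 and 12.6 CPM in wild-type cells, at 32.1, 33.0 and 32.7 in cells lacking only DHX36, at 17.8, 25.8 and 14.4 in those lacking only FANCJ and at 10.5, 8.77 and 7.57 in those lacking both (interaction -2.20, SE 0.26, adjusted p 6.46e-06). DHX36 knockout libraries were the highest for Cd44, and the double knockout lay under the other 9 libraries.

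Sox17 and Srgn, a transcription factor gene and a proteoglycan gene used as markers of primitive endoderm, rose in each single knockout and were short of the sum in the double. Sox17 stood at 4.65, 1.24 and 1.87 CPM in wild-type cells, at 9.34, 11.7 and 11.5 in cells lacking only DHX36, at 18.7, 11.3 and 9.49 in those lacking only FANCJ and at 12.4, 7.82 and 9.08 in those lacking both. All 3 mutant genotypes overlapped and lay above wild type, where the sum predicted 59.2 CPM (interaction -2.55, SE 0.43, adjusted p 0.000512). Srgn stood at 1.99, 1.06 and 2.81 CPM in wild-type cells, at 9.12, 7.42 and 7.49 in cells lacking only DHX36, at 18.4, 19.8 and 22.3 in those lacking only FANCJ and at 18.5, 15.2 and 13.4 in those lacking both (interaction -2.44, SE 0.33, adjusted p 3.87e-05). The double knockout was close to the FANCJ knockout for this gene. Of 18 primitive endoderm markers tested, 6 were below the sum and none above (median -0.56). The called share was 33.3% against 8.79% of all genes. The other 4 called members were the collagen IV genes Col4a1 and Col4a2, the collagen chaperone Serpinh1 and the laminin Lamb1, all of which are in the matrix list too.

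Genes of the 2-cell-like state, a transient state of stem cell cultures that resembles the early embryo, were mostly below the sum too. Of 27 listed genes 15 were tested, 9 were below the sum and 1 above, Eif1a at 0.38, and 7 of the 10 held in all 12 fits. The median interaction of the 15 was -1.25, and their called share was 66.7% against 8.79% of all genes. Usp17lc, a deubiquitinase gene, stood at 4.65, 5.83 and 7.26 CPM in wild-type cells, at 26.2, 22.1 and 24.3 in cells lacking only DHX36, at 10.4, 11 and 12.4 in those lacking only FANCJ and at 10.5, 9.65 and 10.1 in those lacking both. The double knockout lay at the FANCJ knockout level and well under the DHX36 knockout (interaction -2.19, SE 0.23, adjusted p 1.44e-06). Zscan4d, a zinc finger gene that marks the state, averaged 22.9 CPM in wild-type cells, 69.9 in cells lacking only DHX36, 34.9 in those lacking only FANCJ and 46.0 in those lacking both, with an interaction of -1.25 (SE 0.19, adjusted p 0.000176). The Usp17l and Zscan4 families hold near-identical copies, so how reads were split between members is uncertain. Zfp352 (interaction -2.14, adjusted p 0.0204) lost its call without wild type 2, DHX36 knockout 3 or FANCJ knockout 3, with a highest adjusted p of 0.0609.

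Signalling genes were called on both sides of the sum, with more below it. Of 15 Wnt targets 7 were below and none above (median -0.69), a called share of 46.7% against 8.79% of all genes. All 12 fits with 1 library left out called 4 of the 7, and FANCJ loss in cells without DHX36 lowered 11 of the 15. Sp5, a direct Wnt target, stood at 14.6, 12.7 and 11.9 CPM in wild-type cells, at 11.5, 10.7 and 8.41 in cells lacking only DHX36, at 7.73, 4.65 and 5.36 in those lacking only FANCJ and at 1.83, 1.75 and 1.87 in those lacking both (interaction -1.34, SE 0.31, adjusted p 0.00672). The genotypes did not overlap, and the double knockout was lowest, past the 4.63 CPM of the sum. With every library thinned to the shallowest total the Sp5 interaction was -1.15 and was no longer called. The ligand gene Wnt3 stood at 5.76, 6.72 and 4.22 CPM in wild-type cells, at 5.00, 4.42 and 4.07 in cells lacking only DHX36, at 5.16, 5.45 and 6.60 in those lacking only FANCJ and at 0.812, 1.28 and 1.34 in those lacking both. Neither single loss passed the test for Wnt3 (adjusted p 0.378 and 0.995), and the interaction was -1.99 (SE 0.38, adjusted p 0.00139). The homeobox gene Cdx2 departed by -2.10 (SE 0.43, adjusted p 0.00304) and the Wnt antagonist gene Dkk1 by -1.64 (SE 0.23, adjusted p 8.42e-05).

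Of 24 immediate early and ERK feedback genes, 9 were below the sum and none above (median -0.41), 8 of them in all 12 fits. Their called share was 37.5% against 8.79% of all genes, and FANCJ loss without DHX36 lowered 15. The 9 included the AP-1 genes Fos, Fosb, Fosl1 and Jun at -1.08, -1.01, -0.86 and -0.66. The ERK feedback genes Dusp6 and Spry4 were at -0.75 and -0.77. Of 20 Nodal and BMP signalling genes, 4 were below and 1 above, and 3 of the 5 held in all 12 fits. Id3, a BMP target that blocks differentiation factors, stood at 101, 100 and 108 CPM in wild-type cells, at 201, 184 and 179 in cells lacking only DHX36, at 124, 117 and 130 in those lacking only FANCJ and at 107, 103 and 103 in those lacking both. DHX36 loss raised Id3 with FANCJ present, and the double knockout libraries lay within the wild-type range (interaction -1.11, SE 0.12, adjusted p 1.58e-06). Lefty2, a Nodal inhibitor and target, was the member above the sum: it stood at 18.4, 15 and 16.9 CPM in wild-type cells, at 33.8, 26.1 and 28.8 in cells lacking only DHX36, at 7.86, 8.64 and 10.7 in those lacking only FANCJ and at 35.8, 37.2 and 36.8 in those lacking both (interaction 1.20, SE 0.20, adjusted p 0.000398). FANCJ loss lowered Lefty2 with DHX36 present, and the double knockout was the highest genotype.

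Imprinted genes, which are read from 1 parental copy, are given by parent. Of 22 paternally expressed genes tested 9 were below the sum and none above (median -0.57). Their called share was 40.9% against 8.79% of all genes. Of the 9, 8 lie off chromosome 6, and 7 held in all 12 fits with 1 library left out. Nnat, a neuronatin gene, stood at 316, 340 and 397 CPM in wild-type cells, at 133, 165 and 156 in cells lacking only DHX36, at 466, 362 and 419 in those lacking only FANCJ and at 74.8, 79.8 and 107 in those lacking both (interaction -1.04, SE 0.18, adjusted p 0.00049). Plagl1 and Peg3, whose mean levels in the FANCJ knockout were 69.0 and 165 CPM against 18.1 and 90.1 in wild type, departed by -0.90 and -0.72. Dlk1 (interaction -1.07, adjusted p 0.0176) lost its call without wild type 2 or FANCJ knockout 1, with a highest adjusted p of 0.0699. Of 15 maternally expressed genes 5 were above the sum and 1, Osbpl5, below (median 0.03). H19, a long noncoding RNA (ENSMUSG00000000031, chromosome 7 at 142575529 to 142578143), stood at 151, 157 and 145 CPM in wild-type cells, at 38.6, 36.5 and 32.2 in cells lacking only DHX36, at 696, 622 and 599 in those lacking only FANCJ and at 574, 602 and 607 in those lacking both. DHX36 loss lowered H19 with FANCJ present but did not pass the test without it (log2 change -0.10, adjusted p 0.338). The double knockout overlapped the FANCJ knockout, above the 151 CPM of the sum (interaction 1.98, SE 0.12, adjusted p 9.72e-10).

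Meg3, Rian and Mirg are noncoding RNAs that lie in a row on chromosome 12 and are read from the maternal copy. In their bin, from 100 to 110 Mb, 7 of 52 genes were above the sum and 1 below (median interaction 0.22). Ak7, named below, lies in the same bin. Meg3 stood at 205, 179 and 187 CPM in wild-type cells, at 52.3, 46.7 and 57.5 in cells lacking only DHX36, at 126, 91.6 and 124 in those lacking only FANCJ and at 111, 103 and 100 in those lacking both. Each single loss lowered it, and the double knockout overlapped the FANCJ knockout rather than falling to the 31.2 CPM of the sum (interaction 1.75, SE 0.15, adjusted p 1.9e-07). Mirg departed by 1.86 (SE 0.21, adjusted p 5.19e-06) and Rian by 1.61 (SE 0.29, adjusted p 0.000775). How strand was handled is not given in the sources used here, and reads from overlapping antisense genes, such as Airn and Igf2r, cannot be told apart. Airn was called below the sum, but its wild-type counts were 6, 1 and 1, so no fold is read from it.

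Naive pluripotency genes, the transcription factors and markers of the ground state of stem cells, had the most members above the sum of the lists examined. Of 32 tested 11 were above and none below (median 0.33), a called share of 34.4% against 8.79% of all genes. Of the 11, 10 lie off chromosome 6, and 9 held in all 12 fits with 1 library left out. FANCJ loss without DHX36 raised 14 and lowered 2, where FANCJ loss with DHX36 raised none and lowered 1. DHX36 loss with FANCJ raised 9 and lowered 5 (median 0.10), and without FANCJ it raised 23 and lowered 1 (median 0.41). Spp1 and Tfcp2l1, given next, are among the 5 lowered. Spp1, which codes for osteopontin, stood at 65.5, 62.6 and 68.4 CPM in wild-type cells, at 26.6, 27.3 and 29.1 in cells lacking only DHX36, at 70.0, 73.1 and 75.9 in those lacking only FANCJ and at 100, 96.0 and 94.4 in those lacking both (interaction 1.65, SE 0.12, adjusted p 2.15e-08). DHX36 loss lowered Spp1 where FANCJ was present, and the double knockout was clear above all other libraries. Tfcp2l1, a transcription factor of the naive state, stood at 128, 143 and 141 CPM in wild-type cells, at 90.5, 78.9 and 89.7 in cells lacking only DHX36, at 134, 115 and 129 in those lacking only FANCJ and at 143, 148 and 146 in those lacking both (interaction 0.88, SE 0.12, adjusted p 7.43e-05). DHX36 loss lowered Tfcp2l1 with FANCJ present, and the double knockout overlapped wild type. The nuclear receptors Esrrb and Nr0b1 departed by 0.66 and 0.82, Tbx3 by 0.77 and the growth factor gene Fgf4 by 0.66. Nanog (0.37, adjusted p 0.0818), Klf4 (0.38, adjusted p 0.0577), Sox2 (0.31, adjusted p 0.0894) and Pou5f1 (0.19, adjusted p 0.449) did not pass. Prdm14 (0.87, adjusted p 0.0401) lost its call without wild type 1 or 3, DHX36 knockout 2 or 3, FANCJ knockout 1 or 2, or double knockout 2 or 3, with a highest adjusted p of 0.136. Formative and primed pluripotency genes, which follow the naive state, had 8 members below and 2 above of 24 (41.7% called, median -0.32). Of these 10 calls 5 held in all 12 fits, and 1 of the 8 below, Podxl, lies on chromosome 6. They included Cd24a at -1.18 (SE 0.13, adjusted p 3.96e-06) and the cofactor of DNA methylation Dnmt3l at 0.66 (SE 0.11, adjusted p 0.000555).

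**Figure D4:**
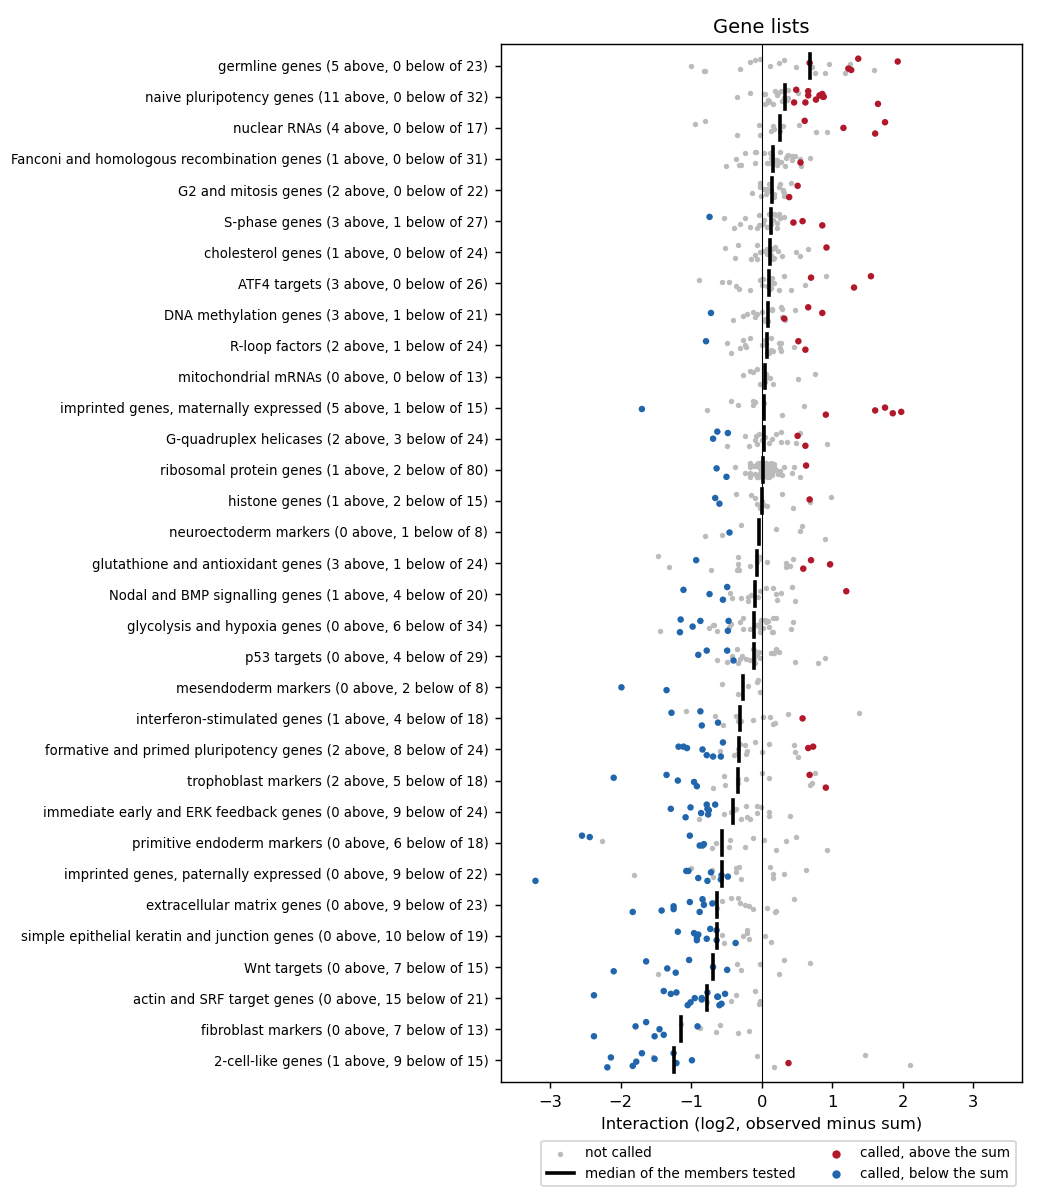
Interaction of each tested member of 33 gene lists (points; red above and blue below the sum when called, grey when not), with the list's median as a bar. The lists with 2-cell-like, fibroblast, actin and SRF target, Wnt, keratin and matrix genes have medians from -1.25 to -0.63, and germline and naive pluripotency genes have medians of 0.68 and 0.33.

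Germline genes, normally silent or low in stem cells, were above the sum for 5 of 23 members and below for none. Their called share was 21.7% against 8.79% of all genes. Their median interaction was 0.68, and 0.40 over the 20 members off chromosome 6. FANCJ loss raised 13 of the 23 without DHX36 and none with it. Rhox5, an X-linked homeobox gene, stood at 43.2, 38.7 and 37.9 CPM in wild-type cells, at 38.6, 30.6 and 31.2 in cells lacking only DHX36, at 36.3, 41.5 and 49.9 in those lacking only FANCJ and at 130, 130 and 146 in those lacking both. Neither single loss passed the test (adjusted p 0.152 and 0.825), and the double knockout was far above every other library (interaction 1.93, SE 0.17, adjusted p 1.54e-07). Stk31, on chromosome 6, and Hsf2bp, which codes for a protein of meiotic recombination, departed by 1.37 and 1.27. Xlr5a and Xlr3a belong to an X-linked family with near-identical copies. Both lie between 70 and 80 Mb of chromosome X, where 9 of 69 genes were above the sum and 1 below (median interaction 0.18). Xlr5a stood at 7.75, 2.47 and 1.64 CPM in wild-type cells, at 1.00, 1.26 and 1.20 in cells lacking only DHX36, at 6.70, 8.11 and 6.19 in those lacking only FANCJ and at 10.1, 21 and 25.5 in those lacking both (interaction 3.15, SE 0.64, adjusted p 0.00251). Wild type 1 and double knockout 1 stood apart from their groups, and the call for DHX36 loss with FANCJ (adjusted p 0.0257) was lost without wild type 1, DHX36 knockout 1 or DHX36 knockout 3, with a highest adjusted p of 0.348. Xlr3a departed by 1.50 (SE 0.24, adjusted p 0.000225).

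Of the other genes with the largest departures upward, Aass codes for the enzyme that opens lysine breakdown and lies on chromosome 6. It stood at 22.8, 30.1 and 25.5 CPM in wild-type cells, at 11.9, 20.8 and 15.4 in cells lacking only DHX36, at 21, 13.8 and 22.5 in those lacking only FANCJ and at 82.7, 95.2 and 73.5 in those lacking both (interaction 2.89, SE 0.25, adjusted p 1.9e-07). The double knockout was clear above all other libraries, opposite in sign to the median of its chromosome. Dusp27, which codes for an atypical phosphatase, stood at 22.6, 27.2 and 26.9 CPM in wild-type cells, at 26.7, 34.3 and 23.8 in cells lacking only DHX36, at 25.9, 25.9 and 20.2 in those lacking only FANCJ and at 79.3, 84.3 and 77.7 in those lacking both. Neither single loss passed the test (adjusted p 0.569 and 0.86), and both together raised it (interaction 1.61, SE 0.19, adjusted p 7.43e-06). The remaining genes of the 15 largest were Cited4 (2.24), Ak7 (1.79), the meiotic Fkbp6 (1.52), the oocyte gene Ooep (1.47) and Rpl39l (1.40), a ribosomal protein paralogue. The wild-type libraries of Ak7 were spread from 2.44 to 6.32 CPM. Fkbp6 is 1 of the 2 genes whose direction turned on the linear scale, where its departure was -0.931 CPM beside a double knockout mean of 6.57 CPM.

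Genes among the 15 largest departures downward that are not yet described were Ppbp (-2.57), the cytochrome gene Cyp1b1 (-2.14), the cyclin gene Ccnd2 on chromosome 6 (-2.13), the insulin receptor substrate Irs1 (-2.12), the protocadherin Pcdh18 (-2.08), Dlx2 (-1.96), Crim1 (-1.87) and the IGF-binding protein gene Igfbp4 (-1.86). Cyp1b1 and Crim1 lie between 70 and 80 Mb of chromosome 17, a bin in which 9 of 46 genes were below the sum and none above, with a median interaction of -0.35. The next bin, from 80 to 90 Mb, had a median of -0.41. In these 2 bins the median effect of FANCJ loss without DHX36 was -0.29 and -0.44, and its part in the result was not tested. Irs1 stood at 46.9, 26.9 and 31.6 CPM in wild-type cells, at 37.4, 27.0 and 30.3 in cells lacking only DHX36, at 41.5, 53.2 and 46.0 in those lacking only FANCJ and at 10.3, 9.01 and 10.1 in those lacking both. Neither single loss passed the test for Irs1 (log2 change -0.14 for DHX36, adjusted p 0.584, and 0.43 for FANCJ, SE 0.16, adjusted p 0.21), and the double knockout lay under all other libraries (interaction SE 0.24, adjusted p 3.96e-06).

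**Figure D5:**
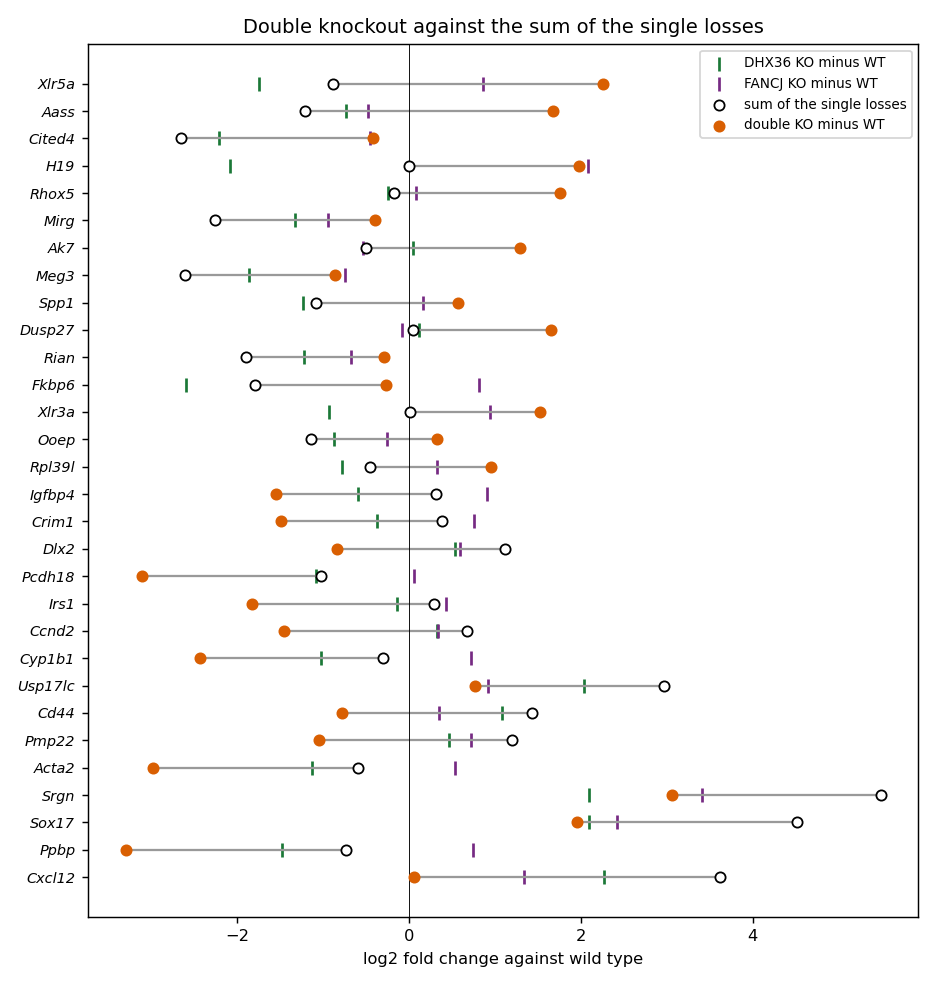
Log2 change against wild type of the 30 genes with the largest departures: each single loss (ticks), their sum (open circle) and the double knockout (filled circle), joined by a line whose length is the departure. Pmp22, Cd44, Ccnd2 and Dlx2 have a sum above 0 and a double knockout below 0; Aass, Spp1 and Rhox5 have a sum below 0 and a double knockout above it.

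The promoters of named genes were searched for the G-quadruplex motif, 4 runs of at least 3 G with loops of 1 to 7 bases, on both strands of the RefSeq windows that run from 250 bases before to 50 after a start site in GRCm38.p6. Windows matched by symbol for 78.2% of tested genes and 75.7% of those below the sum, under 80%, so a comparison of shares between groups is void and none is given; 18.6% of all 32851 windows held the motif. Of the 9988 tested genes with a window, 3237 (32.4%) held the motif at any length in at least 1 window. Of the 30 genes with the largest departures 27 had a window and 10 held a motif of at most 30 bases. The 32.4% counts motifs of any length and is an unlike measure, so no result about these genes is read. Some named genes, Pou4f3 (-2.93) among them, were left out by their chromosome before stretches were chosen. The stretches below are those of the 6 genes with the largest departures that held one among the remaining named, called genes. They are therefore not a ranking over all named genes. Each is printed 5′ to 3′ on the strand that carries the guanines, with the G runs in capitals. A match is a description of letters, and binding or folding was not measured here.
Xlr5a: GGGGttctgtGGGactGGGGGGGGGGGG
Pmp22: GGGGGcaggcGGGcGGGcGGGG
Cyp1b1: GGGaccttaGGGGGtGGGGcgtgaGGGG
Irs1: GGGGGtggagaGGGGcGGGcgtGGGG
Pcdh18: GGGtGGGagcGGGaGGG
Wnt3: GGGccGGGcGGGaGGGG

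The Xlr5a stretch lies at chrX:73117770-73117797 on the minus strand. The Pmp22 stretch lies at chr11:63131390-63131411 on the minus strand. The Cyp1b1 stretch lies at chr17:79715115-79715142 on the plus strand. The Irs1 stretch lies at chr1:82291653-82291678 on the minus strand. The Pcdh18 stretch lies at chr3:49757409-49757425 on the plus strand. The Wnt3 stretch lies at chr11:103774000-103774016 on the plus strand. Xlr5a is the 1 gene of the 6 above the sum. Relative to the annotated start sites they lie between bases -239 and -46. Pmp22 has 4 windows, of which 1 held the motif.

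FANCJ loss was called in both settings with opposite signs for 56 departing genes, 52 of them below the sum, and DHX36 loss likewise for 80. The 5 largest for FANCJ loss were Cxcl12, Cntnap3, Pou4f3, En1 and Ppbp, each higher with FANCJ loss where DHX36 was present and lower where it was absent. None of the 5 kept its call for FANCJ loss with DHX36 in all 12 fits with 1 library left out: 6 to 9 fits kept it, although the interaction of each was called in all 12. En1, a homeobox gene, stood at 2.44, 2.30 and 1.41 CPM in wild-type cells, at 4.45, 4.58 and 4.16 in cells lacking only DHX36, at 4.38, 6.12 and 5.98 in those lacking only FANCJ and at 1.35, 1.12 and 2.14 in those lacking both (interaction -2.91, SE 0.42, adjusted p 0.000111). The 5 largest for DHX36 loss were Ccl7, Cxcl12, Gm29361, En1 and Xlr5a. Only Cxcl12 kept both of its DHX36 calls in all 12 fits. The call for DHX36 loss with FANCJ was kept in 9 fits for Ccl7, Gm29361 and Xlr5a and in 11 for En1, and the call without FANCJ in 9 for Gm29361. Wild-type counts were 2, 3 and 4 for Ccl7, 2, 1 and 1 for Gm29361 and 1, 5 and 2 for Cntnap3, so their fitted changes depend on the prior count and no fold is read from them.

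Lists closer to the functions of the lost proteins were mixed. Of 24 proteins that act on G-quadruplexes, 2 were above the sum, among them Atrx (0.51), and 3 below, Ddx21 (-0.48) and the chromosome 6 genes Recql (-0.69) and Cnbp (-0.63). Recql lost its call without wild type 1, FANCJ knockout 2 or double knockout 2, with a highest adjusted p of 0.0626. Of 24 R-loop factors 2 were above and 1 below, Rad51ap1 on chromosome 6, and of 31 Fanconi and homologous recombination genes only Brca1 was called, at 0.55 (SE 0.14, adjusted p 0.0169). Of 29 p53 targets 4 were below, including Perp (-0.90) and Plk2 (-0.78), and of 27 S-phase genes 3 were above and 1 below, Mcm2 on chromosome 6. Called shares were 20.8% for the G-quadruplex list, 12.5% for R-loop factors and 3.23% for Fanconi and homologous recombination genes. They were 13.8% for p53 targets and 14.8% for S-phase genes, against 8.79% of all genes. Few calls make up these shares, and no result about a list is read from them. The 80 ribosomal protein genes had 1 above and 2 below, a called share of 3.75% against 8.79% of all genes. ATF4 targets of the amino acid stress response had 3 members above and none below of 26, a called share of 11.5%. The 3 were Trib3 at 1.55, Chac1 at 1.31 and Cth at 0.70. Chac1 was at 1.23 and not called with every library thinned to the shallowest total. Glycolysis and hypoxia genes had 6 below and none above of 34, a called share of 17.6%. Of the 6, 2 lie on chromosome 6, and the prolyl hydroxylase Egln3 was at -1.15 and Pfkfb3 at -1.16.

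Y-linked genes need a separate account. All 4 listed genes tested were called, 3 below the sum and 1 above, against 8.79% of all genes. The calls of 2 held in all 12 fits with 1 library left out. Over the 6 chromosome Y genes tested the median was 1.75 for DHX36 loss with FANCJ. It was 0.56 for FANCJ loss with DHX36 and -0.87 for the interaction. Ddx3y, an RNA helicase gene, stood at 9.96, 8.31 and 9.84 CPM in wild-type cells, at 34.2, 27.6 and 35.8 in cells lacking only DHX36, at 24, 26.7 and 22.1 in those lacking only FANCJ and at 39.0, 43.9 and 34.6 in those lacking both (interaction -1.13, SE 0.20, adjusted p 0.000897). Every mutant library was above wild type, and the double knockout was short of the sum. Kdm5d was counted 6, 0 and 4 times in the wild-type libraries, 7, 8 and 4 times where only DHX36 was lost, 0 times in each library lacking only FANCJ and 24, 15 and 12 times where both were lost, so no fold is given. Its call was lost without wild type 1, wild type 3, FANCJ knockout 1 or FANCJ knockout 2. Without double knockout 1 the gene did not pass the expression filter and was not tested. How many cells carried a Y chromosome was not measured.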

How the data were processed

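Bulk RNA sequencing libraries were made by a protocol like CEL-Seq2, which tags the 3′ ends of polyadenylated transcripts, per the labels' protocols. The authors deposited raw counts, whole numbers for each gene in each library. The submitters' processing notes name BWA, GRCm38 and hg38 without roles, and whether counts are reads or molecules is not given in the sources used here. The table held 32285 genes and 92 spike-in rows, which were dropped. Coordinates come from GENCODE M21, which matched 32235 identifiers.

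From the counts, all 12 libraries were fitted together in edgeR 4.0.16 (R 4.3.3) with TMM normalisation, the default expression filter by genotype and the quasi-likelihood test. The standard error is the log2 value divided by the root of F. The steps were tested on simulated data. Alternatives used DESeq2 1.42.0, limma 3.58.1, other normalisations and filters, thinned counts, a replicate block and each library left out. Replicate numbers did not pair samples: correlations of same-numbered deviations ran from -0.0563 to 0.0462.

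Genes were named by rule: the targeted genes, the 15 largest departures in each direction among genes called in every leave-one-out fit with at least 10 CPM in a genotype (predicted genes left out), up to 3 called members per list, and up to 5 genes with opposite effects of each loss. Other called list members are given as values; 1 is not reported here. The gene lists and members were chosen with earlier results of these data known.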

Additional observations from a re-analysis of the deposited data

Results flagged for a closer look

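Every one of the 1122 genes called for the interaction has an effect of FANCJ loss that differs between cells with and without DHX36 by the test of the difference itself, so the genes given here are those with the largest departures and those with called effects of opposite sign. The log2 effect of FANCJ loss was larger without DHX36 than with it for Xlr5a (3.15), Aass (2.89), Cited4 (2.24), H19 (1.98), Rhox5 (1.93), Mirg (1.86), Ak7 (1.79), Meg3 (1.75), Spp1 (1.65), Rian (1.61), Dusp27 (1.61), Fkbp6 (1.52), Xlr3a (1.50), Ooep (1.47) and Rpl39l (1.40). It was smaller without DHX36 for Ccl7 (-3.85), Cxcl12 (-3.56), Gm29361 (-3.35), Cntnap3 (-3.25), Pou4f3 (-2.93), En1 (-2.91), Ppbp (-2.57), Sox17 (-2.55), Srgn (-2.44), Acta2 (-2.38), Pmp22 (-2.25), Cd44 (-2.20), Usp17lc (-2.19), Cyp1b1 (-2.14), Ccnd2 (-2.13), Irs1 (-2.12), Pcdh18 (-2.08), Dlx2 (-1.96), Crim1 (-1.87) and Igfbp4 (-1.86). Ccl7, Gm29361 and Cntnap3 had wild-type counts of 1 to 5 per library, so their fitted values depend on the prior count and no fold is read from them. Aass, Ccnd2 and Cxcl12 lie on chromosome 6, whose genes were high as a block in the DHX36 knockout libraries.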

How the results depend on the processing

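The count of departing genes was 1122 and lay between 849 (thinned libraries) and 1319 (no filter on low counts) under every alternative run, with 264 to 421 above the sum and 585 to 898 below it. Leaving out 1 library gave 880 to 1071 genes, 249 to 329 above and 627 to 742 below. With the replicate number as a block the count was 1039, and since the numbers do not pair the libraries this is given only as a check; 13 of 36 best matches had the same number. The count for FANCJ loss with DHX36 moved from 264 to 418 without a filter, and ran from 110 to 265 with 1 library left out. The other comparisons ran from 1789 to 2657 (FANCJ loss without DHX36), 2503 to 3154 (DHX36 loss with FANCJ), 3869 to 4832 (DHX36 loss without FANCJ) and 3498 to 4379 (double loss). No named gene reversed. Of the named genes 9 lost their call in thinned libraries, where less depth is the construction of the alternative. The fits without mitochondrial totals and without chromosome 6 genes were chosen after the data were seen.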
